A study of Mus musculus with 5 samples.

Results

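Transcript levels in cultured mouse ventral midbrain (VM) astrocytes titled as carrying the control construct were compared with those in VM astrocytes that received no virus. The study held 5 RNA-seq libraries, 1 per condition, and the 2 libraries compared here are called VM C and VM untransduced. The other 3 were VM NF, titled for Nurr1 and Foxa2, cortical (Ctx) astrocytes and cortical neural precursor cells (NPCs). All 3 VM cultures came from ICR mice at postnatal day 5 and were at passage 2, were grown as astrocytes, and are labelled as astrocyte progenitor cells. The viruses were lentiviruses of the pCDH backbone, in which a CMV promoter, active in many cell types, drives the mouse Nurr1 or the rat Foxa2 sequence, and the mock virus was the empty backbone. Nothing in the labels says how many animals or cultures went into a library. The comparison covered 12703 of the 20178 transcripts listed, those with more than 1 FPKM (reads scaled to transcript length and to library size) in at least 1 of both libraries.

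The labels of these libraries contradict each other. By title, VM C is the mock control and VM NF carries Nurr1 and Foxa2, whereas the treatment entries give VM C both factors and VM NF the mock virus. The transduced genes were therefore looked at first. Foxa2, a forkhead factor of the midbrain floor plate, gave 15 reads in VM C, 68 in VM untransduced and 216 in VM NF. For Nr4a2, which encodes the nuclear receptor Nurr1, 53, 81 and 183 reads were counted. The lowest value of either gene was that of VM C, although its treatment entry gives it both factors, and the highest was that of VM NF. Foxa1, which neither virus carried, was lower in VM C too (log2 ratio -2.58, beside -2.22 for Foxa2). Reads of the viral genes and of the cells' own genes were not told apart, so these counts do not settle which label is right. The names used below follow the titles, and if the treatment entries were right every difference would stand between a library with both factors and one without virus. The empty vector carries no gene of the table, so no transcript checks that VM C was transduced.

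Virus, culture and library could not be told apart, because each library is a single culture or pool with no replicate. Read totals were close, at 22554835 in VM C and 21301651 in VM untransduced. Each count was scaled to its total after adding 0.5 reads, a gene was called at 2-fold or more, and single ratios carry an exact 95% interval for counting error, which leaves out any spread between cultures. VM C stood apart from both other VM libraries. Between VM C and VM untransduced, 2004 transcripts (15.8%) differed by 2-fold or more, against 123 of 12428 (0.99%) between VM NF and VM untransduced. Between VM NF and VM C, 2446 of 12701 (19.3%) differed. By title VM NF is the library with both factors, yet it lay close to VM untransduced. Which of the labels is right was not tested. The values of VM NF are given beside those of the compared libraries where they help to place a gene. No test of the conditions is possible with 1 library a side, and the words higher and lower below mean a 2-fold call.

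Of the 12703 transcripts, 927 (7.3%) were higher and 1077 (8.48%) were lower in VM C, and the median log2 ratio over all was -0.01. Counts within the lists below are to be read beside these shares. The tails were similar in size, with 338 transcripts 4-fold or more higher and 294 4-fold or more lower. Most tested members were higher in the lists of macrophage, mature oligodendrocyte and Schwann-lineage genes, and most were lower in those of motile cilia, choroid plexus and Wnt genes. Smaller parts of other lists were called, such as 10 of 23 lipoprotein and lipid efflux genes and 7 of 38 DNA replication genes, which were higher, and 16 of 32 BMP and TGF-beta genes, 13 of 37 regional transcription factors, 9 of 23 collagens and 8 of 29 p53 targets, which were lower. Cholesterol synthesis, ribosomal proteins and the respiratory chain held no called gene, with 22, 43 and 40 members tested, although reads of ribosomal protein genes can be split with their pseudogenes.

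**Figure D1:**
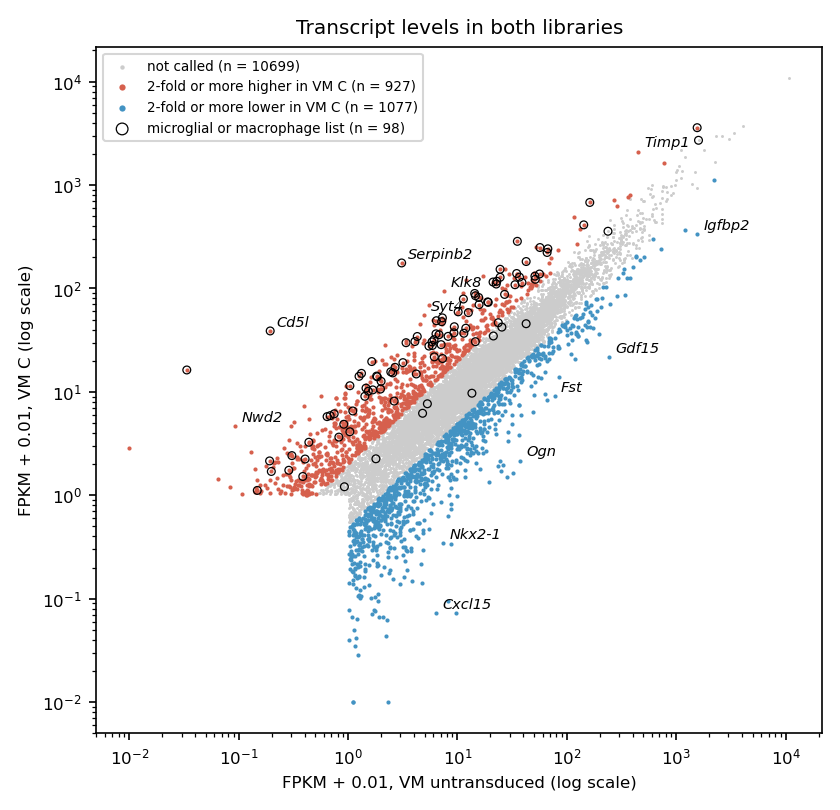
FPKM of each tested transcript in VM untransduced (horizontal) and VM C (vertical), both on log scales after adding 0.01, with 927 transcripts 2-fold or more higher in VM C in red, 1077 lower in blue and the 98 tested members of the microglial and macrophage lists circled. Circled genes lie within or above the grey band, while Timp1, Klk8 and Syt4 lie above it without being on those lists, and Igfbp2, Gdf15, Fst and Ogn lie below it.

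Astrocytes support neurons by clearing glutamate and potassium and by supplying metabolites, and in culture they usually share the dish with microglia, the macrophages of the brain. Cultures from whole ventral midbrain can also carry oligodendrocyte precursors, ependymal cells that line the ventricles with beating cilia, and meningeal fibroblasts. In a bulk library, fewer cells of a type and less RNA per cell cannot be told apart. The astrocyte label was checked with 20 tested marker genes, of which 3 were higher and 2 lower, with a median log2 ratio of -0.36. Gfap, the intermediate filament of astrocytes, was at 180 FPKM in VM C and 154 in VM untransduced, and the glutamate transporter Slc1a3 at 89.6 and 96.7. Aldh1l1, a folate enzyme used as a pan-astrocyte marker, was at 32.1 FPKM in VM C against 113 in VM untransduced and 99.0 in VM NF. Mlc1, a membrane protein of astrocyte endfeet, was lower as well (42.0 against 95.4 FPKM). In the other direction stood Acsbg1, an acyl-CoA synthetase (98.2 against 27.1 FPKM), the potassium channel Kcnj10 (40.6 against 13.6) and the calcium-binding protein S100b (29.1 against 12.7). Astrocyte markers were thus present in both libraries and did not move one way.

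Microglial and macrophage genes are given before the other groups. Of 98 tested members of the microglial and macrophage lists, 87 were higher and none was lower in VM C, with a median log2 ratio of 2.38. Of the microglial identity genes found in the deposited data, 27 in all, 1 had no read in either library. The summed level of both lists was 21683 CPM (counts scaled to library size only) in VM C, 7258 in VM untransduced, 5715 in VM NF, 2203 in Ctx astrocytes and 306 in Ctx NPCs. The myeloid master regulator Spi1 was at 52.0 against 7.27 FPKM, and the signalling adaptor Tyrobp at 249 against 56.7. A few members lay far outside the spread of the list. Cd5l, a secreted protein of tissue macrophages, had 1789 reads against 8 (log2 ratio 7.64, interval 6.74 to 8.94). Serpinb2, an inhibitor of urokinase, had 7956 reads against 131 (5.84, 5.59 to 6.10). Fcrls, an Fc receptor-like protein of microglia, had 734 reads against 1 (8.87, 6.95 to 14.74). Whether these 3 genes changed within microglia or mark another macrophage was not tested.

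The rise was not limited to those lists. Of the 12605 tested transcripts on neither list, 840 (6.66%) were higher and 1077 (8.54%) lower. Ctx NPCs, the library with the least microglial RNA, had more than 1 FPKM of 450 of the 927 higher transcripts (48.5%), 718 of the 1077 lower ones (66.7%) and 11274 of all 12703 (88.8%). Called transcripts in both directions were therefore less often expressed in the NPCs than the table as a whole. Of the 212 transcripts higher by more than the median of the microglial and macrophage lists, 163 were on neither list. Genes on neither list include receptors abundant on macrophages, such as Tlr13 and Tlr8. The count therefore does not show a rise outside myeloid cells. The part of the microglial genes in the differences of other lists was not tested.

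Among the 12 largest rises off those lists, several had very low levels in every other library. Nwd2, a large protein with WD repeats, had 905 reads in VM C and 15 in VM untransduced (log2 ratio 5.79, interval 5.10 to 6.68), and 0.0576 FPKM in VM NF against 4.70 in VM C. Il21r, a cytokine receptor of lymphoid and myeloid cells, had 539 reads against 31. Slc13a3, a sodium-coupled carrier of dicarboxylates, had 2063 against 148, and Ctx astrocytes held 8.49 FPKM of it where VM C held 28.3. Klk8, a secreted serine protease also called neuropsin, was at 95.1 FPKM against 7.58. Esm1, a proteoglycan best known from endothelial tip cells, was at 68.7 against 5.48 FPKM. Syt4, a synaptotagmin of secretory vesicles, had 4871 reads against 414 (3.47, 3.33 to 3.62). Tlr7, an endosomal receptor for single-stranded RNA, had 1714 reads against 143, and Sema7a, a membrane-anchored semaphorin, 646 against 54. The remaining 4 were Stra6l, Sapcd1, the serotonin receptor Htr2b and the small GTPase-like Arl11, with log2 ratios from 3.39 to 3.66. Arl11, Il21r and Tlr7 are expressed in blood-derived cells, and Klk8, Esm1 and Syt4 are not microglial markers.

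The 12 largest falls were of a different kind and mostly left near-zero levels. Cxcl15, a chemokine of lung epithelium, had 3 reads in VM C and 289 in VM untransduced (log2 ratio -6.45, interval -8.96 to -5.11), and 5.88 FPKM in VM NF. Nfe2l3, a cap'n'collar transcription factor, had 19 reads against 473 although all other libraries held from 8.71 to 12.7 FPKM of it. Akr1c14, an aldo-keto reductase of steroids, had 83 reads against 1481, and Ctx astrocytes held 26.3 FPKM of it. Ogn, the matrix proteoglycan osteoglycin, was at 2.16 against 37.5 FPKM. Nkx2-1, a transcription factor of the ventral forebrain and hypothalamus, had 17 reads against 356. Ccl20, the ligand of Ccr6, had 30 reads against 549. Entpd3, an ectonucleotidase, had 10 against 221, and Ptgfr, the receptor of prostaglandin F2 alpha, 22 against 312. Bmp4 completed the list together with Tmem132c, the integrin-like Itgbl1 and the developmental muscle myosin Myh8. In each of these 12 genes, the level in VM NF lay nearer to VM untransduced than to VM C on the log scale.

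**Figure D2:**
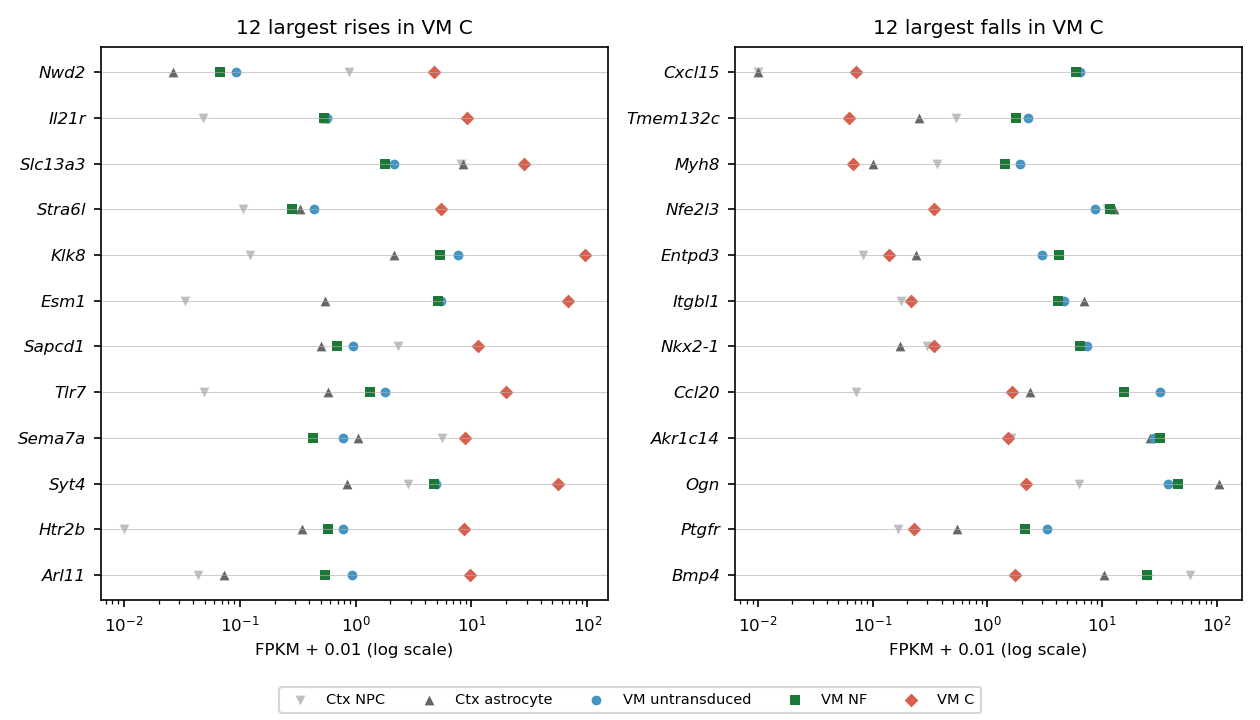
FPKM plus 0.01 on log scales in all 5 libraries (1 marker each) for the 12 largest rises and the 12 largest falls between VM untransduced and VM C, without the microglial and macrophage lists. The VM C marker stands alone to the right for each rise, and for each fall it stands to the left of the VM untransduced and VM NF markers, which lie near each other.

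The most abundant higher gene was Spp1, osteopontin, a secreted phosphoprotein of macrophages, at 3585 FPKM in VM C against 1554. Timp1, an inhibitor of metalloproteinases, followed with 2108 against 447 FPKM, a 4.72-fold difference. Apoe, the main apolipoprotein of glia, was at 1619 against 770, the lysosomal protease Ctsb at 796 against 381 and the lipid droplet protein Plin2 at 761 against 362. Among the lower genes, Mt1, a metallothionein, was at 1106 against 2230 FPKM, just past 2-fold. Igfbp2, a binding protein of insulin-like growth factors, was at 336 against 1557, and its level in VM NF was 1545. The matricellular protein Ccn1 was at 369 against 1205, the helix-loop-helix inhibitor Id3 at 239 against 725, and the prion protein Prnp at 300 against 609. The differences thus reached genes with some of the highest levels in these cultures.

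**Figure D3:**
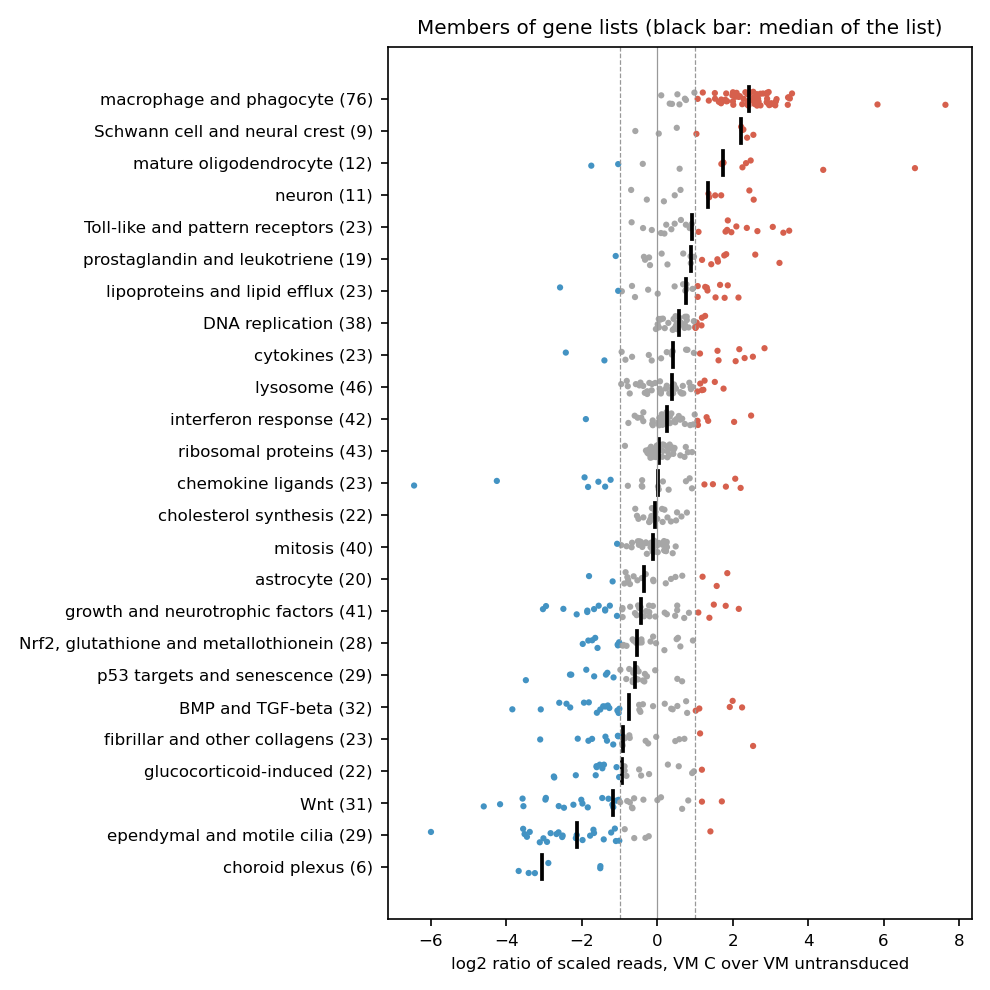
Log2 ratio of scaled reads, VM C over VM untransduced, for each tested member (points, red 2-fold or more higher, blue 2-fold or more lower, grey neither) of 25 gene lists ordered by their median (black bar), with the number tested in brackets. The macrophage list lies almost wholly to the right, the ependymal and choroid plexus lists to the left, and the ribosomal, cholesterol and mitosis lists around 0.

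Oligodendrocyte and neural crest genes were higher next to the macrophage genes. Oligodendrocytes make the myelin of the brain and Schwann cells that of nerves, and Sox10 is a lineage factor of both. Of 12 tested mature oligodendrocyte genes 8 were higher and 2 lower (median log2 ratio 1.75), of 12 precursor genes 5 were higher and none lower (0.93), and of 9 Schwann and neural crest genes 6 were higher and none lower (2.22). Mbp, myelin basic protein, was at 61.9 against 12.1 FPKM. Sox10 was at 10.7 against 2.04 FPKM. Opalin, a membrane protein of myelin, had 58 reads against 0, at least 18.3-fold higher when a count of 0 is set to a floor of 3 reads. Gpr17, a receptor of committed precursors, had 141 reads against 8. Ngfr, the low-affinity neurotrophin receptor of Schwann cells, was at 5.82 against 0.991 FPKM, and the cadherin Cdh19 at 7.03 against 1.44. Aspa, the aspartoacylase of oligodendrocytes, went the other way with 22 reads against 71. Ctx NPCs held far more Mbp (1484 FPKM) and Sox10 (242) than VM C, and less Cdh19 (1.74) and Ngfr (0.644).

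Neuronal genes showed a similar pattern at low levels. Of 11 tested, 6 were higher and none lower. Nefl, the light neurofilament, had 183 reads against 29 and Snap25, a protein of vesicle fusion, 100 against 17. Tubb3, the neuronal tubulin, was at 20.9 against 7.20 FPKM. Stmn2, a microtubule regulator and the most abundant of the list, was at 188 against 304 FPKM and not called. Their summed level did not follow the count, at 824 CPM in VM C and 900 in VM untransduced, because Stmn2 dominates it.

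Genes of the ventricle lining were mostly lower. Motile cilia are built from dynein arms, radial spokes and associated proteins under the factor Foxj1, and the choroid plexus secretes cerebrospinal fluid. Of 29 tested ependymal and cilia genes, 24 were lower and 1 was higher (median -2.14), and all 6 tested choroid plexus genes were lower (-3.07). Foxj1 itself was at 20.9 FPKM in VM C, 119 in VM untransduced and 114 in VM NF. Dynlrb2, a light chain of axonemal dynein, had 1 read against 91 (log2 ratio -6.00, interval -11.91 to -4.08). Cfap43, a protein of the ciliary axoneme, had 63 reads against 705, the radial spoke protein Rsph4a 20 against 212 and Tppp3, a tubulin-polymerizing protein, 873 against 2666. Ttr, the transthyretin of choroid plexus, was at 3.84 against 36.5 FPKM and its regulator Otx2 at 0.814 against 8.74. The exception was 1700012B09Rik, with 102 reads against 36. Over all symbol families of at least 8 tested genes, the Cfap family of cilia genes had 11 of 17 members lower and none higher.

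Transcription factors of brain regions were lower more often than higher. Of 37 tested, 13 were lower and 2 higher (median -0.68). Next to Nkx2-1 and Otx2, Otx1, a factor of forebrain and midbrain, had 36 reads against 296, and Barhl2, a homeobox factor of diencephalon and spinal cord, 16 against 119. Foxa1, the close relative of Foxa2, had 47 reads against 267, and Six3, a factor of the anterior forebrain, 36 against 234. The midbrain factor En2 was at 3.04 against 6.82 FPKM. Both higher genes belonged to the Hox clusters, which mark hindbrain and spinal cord. Hoxb5 had 70 reads against 20 and Hoxa5 268 against 109. Irx1, the most abundant of the list, was not called (28.2 against 35.4 FPKM). Forebrain and midbrain factors were thus among the falls while the 2 rises were of posterior identity, at low levels.

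Wnt genes formed the family with the highest share of falls, with 9 of 12 ligands lower and 1 higher. Wnt ligands act through Frizzled receptors and are held back by secreted Sfrp and Wif proteins, and Wnt1 and its partners pattern the developing midbrain. Of 31 tested pathway genes, 18 were lower and 2 higher (median -1.17). Wnt10a had 8 reads against 144 and Wnt6 12 against 140. Rspo2, a secreted amplifier of the signal, had 3 reads against 80 (log2 ratio -4.60, interval -7.13 to -3.22). Of the secreted inhibitors, Sfrp1 was lower, at 31.9 against 149 FPKM, with 151 in VM NF, and so was Wif1, at 0.728 against 8.63, while Dkk2, Dkk3, Frzb and Sfrp4 were not called. Wnt2 was higher (9.01 against 2.75 FPKM), as was the R-spondin receptor Lgr6 (9.21 against 4.05). Wnt5a, a non-canonical ligand, had 20.1 FPKM in both libraries. Axin2, a common target of the pathway, was at 6.37 against 10.1 FPKM and not called.

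In the BMP and TGF-beta pathway, ligand, antagonists and targets were lower together. BMPs bind serine-threonine kinase receptors and raise the Id genes, while noggin, chordin and follistatin trap the ligands. Of 32 tested genes 16 were lower and 5 higher (median -0.74). Bmp4 had 80 reads against 1090 (log2 ratio -3.84, interval -4.20 to -3.52). Its antagonists Nog and Chrd had 106 reads against 533 and 41 against 237, and Fst, follistatin, at 9.11 against 77.6. The targets Id3 and Id1 were lower by 1.60 and 1.31 on the log2 scale. Of the TGF-beta ligands, Tgfb3 had 712 reads against 3613 and Tgfb2 1048 against 2616, whereas Tgfb1, a product of many cells including macrophages, was at 45.8 against 20.9 FPKM. Inhba, which encodes an activin subunit, was at 63.9 FPKM against 16.0. The receptor Bmpr1b was higher as well (1.89 against 0.496 FPKM).

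Notch and Hedgehog genes were fewer and more mixed. Notch signals between touching cells through Jagged and Delta ligands, and Hedgehog ligands specify the ventral midline. Of 18 Notch genes 4 were higher and 5 lower. Jag2 had 49 reads against 366 while Jag1 had 2221 against 702, so both Jagged ligands moved in opposite directions. The targets Hey1 and Nrarp were lower (8.69 against 27.2 and 0.602 against 3.26 FPKM). Notch4 and the non-canonical ligand Dlk1 were higher (2.55 against 0.637 and 15.4 against 3.38). Of 12 Hedgehog genes 4 were lower and none higher, among them the ligands Shh (4.37 against 17.6 FPKM) and Dhh (156 reads against 542), the co-receptor Cdon and the target factor Gli1. The transducer Smo was at 26.6 against 35.1 FPKM.

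**Figure D4:**
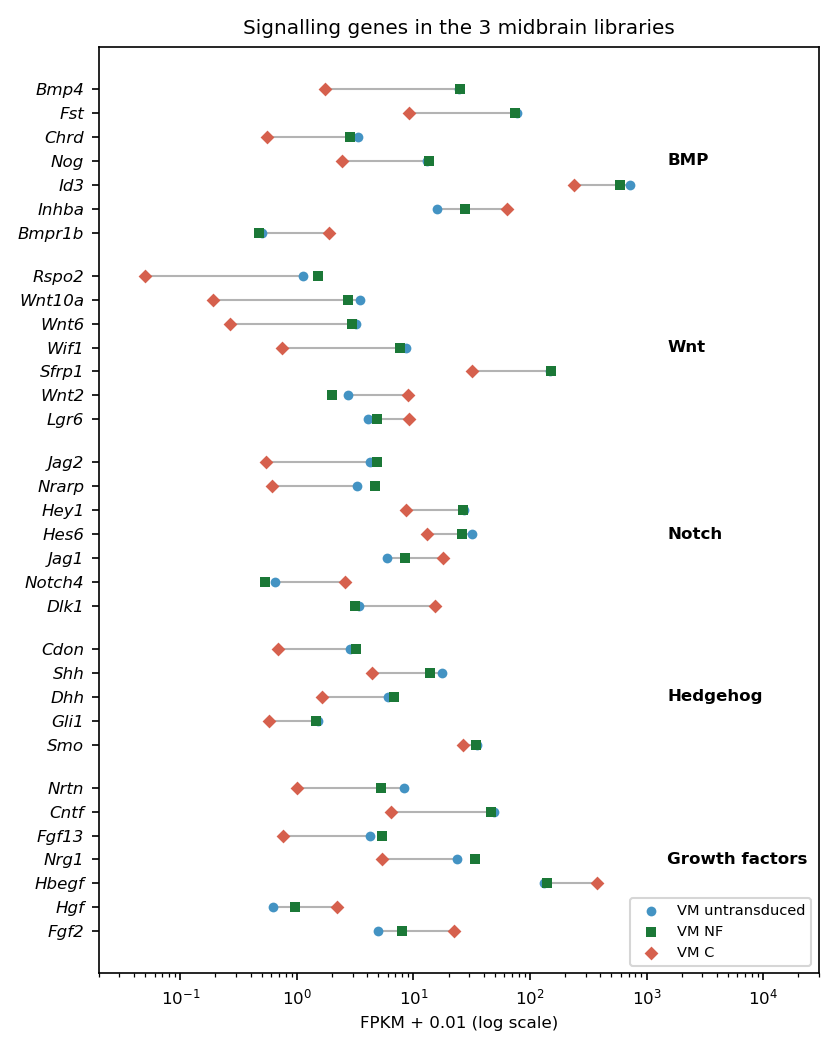
FPKM plus 0.01 on a log scale of named BMP, Wnt, Notch, Hedgehog and growth factor genes in VM untransduced (circles), VM NF (squares) and VM C (diamonds), with a line joining VM untransduced and VM C. The squares lie near the circles for most genes, and the diamonds lie to the left for Bmp4, Wnt10a, Jag2, Shh and Cntf and to the right for Inhba, Wnt2, Jag1, Dlk1 and Hbegf.

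Growth and neurotrophic factors split by kind. Of 41 tested, 5 were higher and 12 lower. The higher ones included the epidermal growth factor family ligand Hbegf (373 against 132 FPKM), Fgf2 (22.4 against 4.98), Hgf (2.18 against 0.614) and betacellulin, Btc (489 reads against 217). Lif, counted with the cytokines, was at 49.9 against 16.5 FPKM. Cntf, a neurotrophic cytokine of astrocytes, was at 6.39 against 49.5 FPKM, with 46.6 in VM NF. Nrtn, neurturin, had 23 reads against 181. Nrg1, neuregulin, had 257 reads against 1069, and Fgf13 was at 0.744 against 4.22 FPKM. Gdnf and Bdnf, which support midbrain dopamine neurons, were at 7.43 against 9.06 and 5.31 against 7.22 FPKM, within 2-fold. Igfbp2 and Igfbp5 were the called IGF binding proteins, both lower.

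Innate immune receptors were often higher. Toll-like receptors recognise microbial nucleic acids and lipids and are abundant on macrophages. Of 23 receptors and partners 11 were higher and none lower (median 0.91). Tlr13, a receptor of bacterial RNA, had 4138 reads against 385, and Tlr8 702 against 79. Cd14, the co-receptor of endotoxin, was at 242 against 67.0 FPKM. Of 22 NFkB pathway genes 2 were higher (9.1%) and 1 lower (4.5%), with a median of 0.10. These shares were close to those of all transcripts (7.3% and 8.48%). The inhibitor Nfkbia was at 166 FPKM against 302. The inhibitor-binding Tnip3 had 165 reads against 34. Among complement genes 8 of 18 were higher and 1 lower, but only 4 of the 14 that are not on the microglial and macrophage lists were higher. C3ar1, the receptor of the C3a fragment, had 11705 reads against 1101, while C1s1, a protease of the classical pathway, was at 9.27 against 25.2 FPKM.

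Of 23 chemokine ligands tested 5 were higher and 7 lower, with a median log2 ratio of 0.02. The 5 higher ligands were of the CC type, which attract monocytes, namely Ccl4 (137 against 29.6 FPKM), Ccl3 (489 against 117), Ccl12 (79.0 against 22.4), Ccl9 (107 against 38.4) and Ccl5 (44.2 against 18.5). Of the 9 tested genes with Cxcl symbols none was higher and 4 were lower. Cxcl10, an interferon-induced ligand, was at 42.3 against 161 FPKM, and Cxcl5, which attracts neutrophils, at 37.3 against 110. The CC ligands Ccl17, Ccl20 and Ccl27a were lower, so this family went both ways. Ccl2, the most abundant, was at 941 against 556 FPKM and was not called. Among 23 cytokines 8 were higher and 2 lower, including Osm, a gp130 ligand of macrophages (603 reads against 79), Il1a (1808 against 378) and the interleukin-1 receptor antagonist Il1rn (3896 against 739). The 2 lower genes were the Tgfb2 and Tgfb3 already given.

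Of 42 tested interferon genes 6 were higher (14.3%, against 7.3% of all transcripts) and 1 lower, with a median log2 ratio of 0.25. The higher ones included the oligoadenylate synthetases Oas2 (4.58 against 0.812 FPKM), Oas3 (5.75 against 1.40) and Oas1a (25.3 against 10.2), enzymes that sense double-stranded RNA, and the related Oasl1 (13.9 against 5.44). Closely related copies can share reads. Ifit1 and Isg15, induced by interferon in most cells, were at 83.4 against 69.2 and 276 against 252 FPKM. Gbp5, a guanylate-binding protein induced by interferon gamma, was lower, at 4.02 against 15.0. The antigen-presenting H2-Ab1 had 62 reads against 286, while B2m, the light chain of class I, was at 2200 against 1780 FPKM. Of the 6 higher genes 4 were thus of the Oas and Oasl genes.

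Genes of lipid mediators and lipid export were more often higher than lower. Of 19 genes of prostaglandin and leukotriene metabolism 8 were higher and 1 lower (median 0.89), and 6 of the 17 on neither the microglial nor the macrophage list were higher. Hpgds, which makes prostaglandin D2 in macrophages and mast cells, had 644 reads against 64. Tbxas1, thromboxane synthase, had 861 against 134, and Alox5ap, the activator of 5-lipoxygenase, 501 against 133. Ltc4s, leukotriene C4 synthase, had 16 reads against 33. Of 23 lipoprotein and lipid efflux genes, none of them on the microglial and macrophage lists, 10 were higher and 2 lower (0.77). Abcg1 and Abca1, exporters of cholesterol, were at 21.2 against 4.76 and 59.2 against 23.8 FPKM. Mylip, which marks lipoprotein receptors for degradation, was at 20.1 against 5.82, and the lipoprotein lipase Lpl at 18.1 against 4.96. Scarb1, a receptor of high-density lipoprotein, was lower (13.3 against 27.4). In the synthesis of cholesterol none of 22 genes was called, beside the 10 of 23 export and lipoprotein genes.

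Lysosomal genes were slightly shifted. Of 46 tested 7 were higher (15.2%, against 7.3% of all transcripts) and none lower (median 0.38). Ctss, a cathepsin of macrophages, was at 223 against 66.0 FPKM. Ctsc, another protease of the lysosome, was at 26.8 against 9.32 FPKM. Ctsd, the most abundant, was at 2971 against 2288 FPKM and was not called. Of the proton pump genes only Atp6v0d2, an isoform of macrophages and osteoclasts, was called among 17 (5.9% higher, near the 7.3% of all transcripts). Slc11a1, the metal carrier of the phagosome, had 2315 reads against 298.

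Promoters of the called genes were searched for fixed letters on both strands of a window from 250 bases before to 50 after each RefSeq start (build GRCm38.p6), in 10173 of 12700 tested symbols that had an entry. A match of letters is a description and not a binding site, and the motif of one family can overlap that of another. The letters GAGGAAGT, a core of the myeloid factor PU.1, stood in 8.99% of 712 higher genes, 2.03% of 837 lower genes and 3.61% of all, and still in 7.72% of the 648 higher genes off the microglial and macrophage lists. AP-1 letters, TGANTCA, stood in 13.6% of higher genes, 7.65% of lower genes and 6.52% of all. The interferon letters TTTCNNTTT stood in 16.9%, 8.84% and 9.51%. NFkB letters, GGGNNTTCC, were equally frequent in the groups at 8.01%, 8.60% and 8.60%. The RFX letters GTTGCCATG stood in 1 higher gene and 14 lower genes, and in 76 of all. The remaining searches were TTTGAA (17.7% of higher, 14.6% of lower and 14.1% of all), CACCCCAC (3.23%, 4.18% and 3.74%) and ACGTG (21.9%, 22.5% and 29.0%). Stretches around the PU.1 letters of a macrophage gene and of the prostaglandin synthase Hpgds, and around the AP-1 letters of metalloproteinase genes and of Serpinb2, are shown with the matched letters in capitals, to let the shared cores be read beside their differing surroundings.
Spp1 (chr5:104434958-104435045, plus strand): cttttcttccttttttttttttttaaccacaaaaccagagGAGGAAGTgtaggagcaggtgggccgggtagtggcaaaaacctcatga
Hpgds (chr6:65144732-65144819, minus strand): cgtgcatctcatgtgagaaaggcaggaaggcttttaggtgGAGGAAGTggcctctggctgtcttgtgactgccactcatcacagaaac
Mmp3 (chr9:7445736-7445821, plus strand): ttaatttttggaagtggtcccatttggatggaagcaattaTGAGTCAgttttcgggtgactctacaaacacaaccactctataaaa
Mmp10 (chr9:7502239-7502325, plus strand): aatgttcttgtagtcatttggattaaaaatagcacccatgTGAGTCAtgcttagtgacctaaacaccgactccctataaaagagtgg
Serpinb2 (chr1:107511289-107511375, plus strand): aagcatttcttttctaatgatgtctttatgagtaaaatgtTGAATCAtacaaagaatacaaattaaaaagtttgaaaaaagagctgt

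Matrix proteases and their inhibitors went both ways. Matrix metalloproteinases cut collagens and proteoglycans, urokinase activates plasminogen at the cell surface, and Timp and Serpin proteins block them. Of 30 tested proteases and inhibitors 7 were higher and 4 lower. Mmp3, stromelysin, had 2040 reads against 287 (log2 ratio 2.74, interval 2.57 to 2.93), and Mmp10, its neighbour with the same AP-1 letters, 144 against 37. Mmp13, a collagenase, was at 19.4 against 6.52 FPKM. Plau, urokinase, was at 53.1 against 11.1 FPKM and its receptor Plaur at 74.5 against 28.3, in the same direction as the urokinase inhibitor Serpinb2. Lower were the gelatinase Mmp2 (62.8 against 147 FPKM), Mmp11 (8.03 against 23.5), Mmp23 and Adamts15. Metalloproteinases thus stood on both sides.

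Structural matrix genes were more often lower than higher, though most were not called. Of 23 collagens 9 were lower and 2 higher (median -0.90), of 9 small leucine-rich proteoglycans 5 were lower and none higher (-1.35), of 18 basement membrane genes 5 were lower (-0.70), and of 27 genes of elastic fibres and crosslinking 5 were lower (-0.24). Col1a1, the main chain of fibrillar collagen, was at 104 against 213 FPKM and Col6a1 at 44.1 against 146. Col8a2 had 36 reads against 296. Fmod, fibromodulin, which binds collagen fibrils, was at 4.85 against 31.4, and Eln, elastin, at 0.855 against 7.10. The basement membrane laminin Lama5 was lower (7.58 against 25.4 FPKM). The fibroblast genes Col3a1 and Dcn did not share this. Col3a1 was at 64.5 against 46.4 and Dcn, decorin, at 60.4 against 38.4 FPKM, neither called. Col15a1, a collagen next to basement membranes, was higher with 618 reads against 100. Brain matrix was mixed, with the hyaluronan synthase Has2 (28.8 against 7.47 FPKM) and the proteoglycan Ncan, neurocan (234 against 82.5), higher and the thrombospondin Thbs1 lower (203 against 509). Smooth muscle genes such as Acta2 (190 against 463 FPKM) and Cnn1 (34.6 against 127) were lower, 6 of 14 in all with none higher.

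Genes of the cell cycle divided by phase. Replication genes load and copy DNA in S phase, and mitosis genes act at division. Of 38 replication genes 37 had a ratio above 0 and 7 were higher (median 0.59), whereas of 40 mitosis genes 14 were above 0, none was higher and 1 was lower (-0.11). The medians differed by 0.70 on the log2 scale. Ccne2, the S-phase cyclin E2, was at 5.36 against 2.22 FPKM, and Pcna, the sliding clamp of the polymerases, at 58.6 against 25.8. Cdc6, which loads the helicase, had 306 reads against 128, Mcm5, a helicase subunit, 1030 against 474, and the flap nuclease Fen1 872 against 399. Mki67 and Top2a, markers of cycling cells, were at 9.98 against 8.63 and 26.5 against 23.4 FPKM. Ckap2, a spindle protein, was the mitosis gene that was lower.

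Genes of p53 and oxidative stress were lower in part. p53 raises growth arrest and death genes after DNA damage. Of 29 p53 and senescence genes 8 were lower and none higher (median -0.58). Gdf15, a secreted stress cytokine, was at 21.8 against 244 FPKM, with 350 in VM NF. Btg2, an antiproliferative gene, was at 30.6 against 152 and the death gene Bbc3 at 7.43 against 36.2. Cdkn1a, the p21 inhibitor, was at 519 against 741 FPKM and not called. Of 28 genes of the oxidative stress and metallothionein list 8 were lower and none higher. Gstm1, a glutathione transferase, was at 86.7 against 341 FPKM, Gclc, the first enzyme of glutathione synthesis, at 21.0 against 69.3, and Sod3, the extracellular superoxide dismutase, at 42.8 against 152. The heat shock protein Hspb8 was at 125 against 353. The unfolded protein response had 1 higher gene of 28 (3.6%, against 7.3% of all transcripts), the factor Atf3.

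Immediate early genes also split. They are switched on within minutes of a stimulus without new protein. Of 29 tested 6 were higher and 10 lower. Fos, Junb and Egr1 were lower (27.7 against 82.4, 104 against 229 and 52.3 against 182 FPKM), together with Zfp36, which destabilises cytokine messages (796 reads against 2452). Egr2 and Egr3 were higher, with 600 reads against 121 and 160 against 33. The phosphatases Dusp4, Dusp5 and Dusp6, which limit MAP kinases, were at 32.8 against 9.35, 43.7 against 18.3 and 111 against 46.6 FPKM. Of 22 glucocorticoid-induced genes 11 were lower and 1, Sgk1, was higher. Fkbp5, Tsc22d3 and Zbtb16 were not called (log2 ratios 0.57, -0.82 and -0.48). Of the lower genes, Dusp1 is also counted with the immediate early genes and Mt1 with the metallothioneins. Klf15 had 90 reads against 567, Cdkn1c 63 against 401, and Pdk4, a kinase that limits pyruvate use, was at 4.89 against 21.9 FPKM.

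Adhesion and transport genes gave both directions. Of 57 axon guidance and adhesion genes 14 were higher and 9 lower. Pcdh8, a protocadherin, had 3 reads against 189 (log2 ratio -5.84, interval -8.35 to -4.49). Of the 9 tested genes named Pcdh with a number, 5 were higher and 1 lower. The clustered Pcdhga protocadherins were counted apart, with none of 9 called. The ephrin Efna5 and the repellent Slit3 were lower (1.16 against 8.63 and 3.34 against 17.9 FPKM). The cadherin Cdh10 and the guidance cue Sema3d were higher (4.66 against 0.920 and 4.70 against 1.12). Ion channel genes had 8 of 29 higher and 3 lower, with the potassium channels Kcna1 and Kcnk13 among the higher. The ectonucleotidase Entpd2 was lower, at 7.50 against 36.4 FPKM. Amino acid carriers Slc7a7 and Slc7a8 were higher (11.2 against 2.74 and 17.1 against 5.41).

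All 228 symbol families with at least 8 tested genes were counted as a view that uses no hand-made list. In 75 of them no gene was called. The families with the highest share higher were Tlr (6 of 8), Csf (5 of 8), Clec (8 of 13), Pcdh (5 of 9) and Cd (25 of 51). The highest shares lower were in Wnt (9 of 12), Cfap (11 of 17), Cxcl (4 of 9) and Col (10 of 27). Colony-stimulating factors and their receptors, lectins and Cd antigens are to a large part genes of myeloid cells, and the Pcdh adhesion proteins are not. Of the related Pcdhga symbols, counted as a separate family, none of 9 was called.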

How the data were processed

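The deposited tables give raw read counts per RefSeq transcript and FPKM, which the authors computed from count, transcript length and library total. According to the methods, reads were quality-trimmed, mapped with STAR to GRCm38/mm10 and counted with HTSeq-count, and the submitters' processing notes name mm9, so coordinates are given for RefSeq promoters only. FPKM recomputed from the deposited counts differed by a relative 4.09e-05 at most. Depth was 20010818 to 22554835 reads, and 3 reads were taken as the floor (0.133 CPM in VM C). Intervals cover counting error only, since PCR copies are not independent molecules. No pair of libraries held identical values.

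Symbols came from RefSeq (19997) or GENCODE (96) for 20178 transcripts, and 85 had no symbol. Scaling used library totals with 0.5 reads added, and ratios of single genes carry exact (Clopper-Pearson) 95% intervals. The 64 lists (17 of cell type markers, 47 of functions) and the members were chosen with earlier results of these data known. Of 14 lymphocyte markers found in the deposited data, only Lck was tested, and it was not called. The named genes are the transduced genes, the 12 largest rises and falls with 10 CPM or more in the higher library that stand on neither the microglial nor the macrophage list, the 5 most abundant called genes in each direction, and for each list the most abundant member and up to 4 called members in each direction. Gfap, Slc1a3, Foxj1, Foxa1, Six3, En2, Wnt5a, Axin2, Id1, Tgfb1, Btc, Lif, Gdnf, Bdnf, Ccl5, Ccl27a, Cxcl5, Dkk2, Dkk3, Frzb, Sfrp4, Ifit1, Isg15, Abca1, Mmp13, Plaur, Col3a1, Dcn, Mcm5, Mki67, Top2a, Cdkn1a, Fos, Junb, Dusp5 and Dusp6 were chosen after their values were seen, as were the counts between VM libraries and the expression of called genes in Ctx NPCs. Some genes that the rule names are not reported here. The calculations were tested on simulated counts. The tools were Python 3.11.15 with scipy 1.17.1, R 4.3.3, edgeR 4.0.16 (TMM factors) and DESeq2 1.42.0 (size factors).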

Additional observations from a re-analysis of the deposited data

How the results depend on the processing

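The counts of 927 higher and 1077 lower transcripts were recomputed under 11 alternatives. Other scalings moved the median of all genes by 0.02 to 0.03 on the log2 scale and gave 951 to 972 higher and 1036 to 1060 lower transcripts. Without a filter on low values the counts were 2045 and 2288, and at 3-fold they were 500 and 504. With more than 1 FPKM required in both libraries 687 were lower (636 higher), and with 10 CPM or more in 1 library 679 were lower (668 higher), because fewer genes were tested. Where the whole counting interval had to lie past 2-fold, 676 were higher and 741 lower. The share of calls that were higher lay between 46.3% and 49.8%. None of 477 recomputed medians of 60 lists left the interval of the main median, which is a spread over members and wide in short lists. Of 1680 recomputed ratios of 336 named genes, 1616 stayed within the counting interval. A change of direction was counted only for genes past 2-fold, where such small shifts could not produce one, and none was found. Mt1, Prnp, Traf1, Mylpf, Ltc4s and Akr1c18 came under 2-fold in at least 1 setting. No paired analysis was possible because each group holds 1 library. Differences of genes with few reads are limited by depth, and those of abundant genes by the lack of replicate cultures.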

Other observations

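Retinoid and steroid enzymes gave values outside the groups above. The retinol receptor Stra6 had 194 reads against 54 and Rarres2, which encodes the chemoattractant chemerin, 387 against 119, both higher in VM C. Aldh1a7 had 4 reads against 82 and Cyp1b1, a cytochrome of retinoid and steroid metabolism, was at 36.4 against 120 FPKM. The retinoic acid binding protein Crabp1 was at 133 against 249 FPKM and not called. Of the 24 genes tested in this list 4 were higher and 5 lower.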
